A study of Mus musculus with 6 samples.

Results

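The genes described here make, activate and inactivate steroid hormones: the cholesterol carrier Star, the side-chain cleavage enzyme Cyp11a1 with its electron donors Fdx1 and Fdxr, the steroid dehydrogenases Hsd3b1, Hsd3b6, Hsd17b2, Hsd11b1 and Akr1c18, and the reductase Srd5a1. They were taken by symbol from a list of 14 genes, of which 10 were among the 7101 genes of the table and 4 (Stard3, Cyp17a1, Cyp19a1 and Hsd11b2) were not analysed here. The assay was RNA-seq: 3 libraries carry the label lnc956 knockout, lnc956 being a long noncoding RNA, and 3 the label wild type. All were C57BL/6N mice at stage E12.5, with embryo given as the tissue. The labels do not say how the knockout was made or whether a library came from a single embryo or a pool, so the p-values measure the spread between these libraries alone. Values are FPKM, fragments per transcript length and library size, a unit inferred from the quantifier named, and can be compared between genes because they are per length.

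Steroid hormones are made from cholesterol. The carrier protein STAR brings cholesterol to the inner mitochondrial membrane, where CYP11A1 cuts its side chain to give pregnenolone, using electrons that pass from NADPH through ferredoxin reductase (Fdxr) and ferredoxin (Fdx1). Enzymes of the Hsd3b family then turn pregnenolone into progesterone, the hormone that maintains pregnancy. In the pregnant mouse, trophoblast giant cells of the placenta and cells of the decidua, the remodelled uterine lining, are known sites of side-chain cleavage, whereas in the fetus the adrenal and the testis acquire it.

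Starts annotated by RefSeq on GRCm38.p6 were found for 8 of the 10 genes. The windows of Cyp11a1, of its electron donor Fdx1 and of Hsd3b6, which acts next in the pathway, are shown because the levels of these genes parted in the knockout libraries. Each runs 5′ to 3′ on the strand of the gene, from 250 bases before the start to 20 bases after it. Capitals mark any of 5 motifs on either strand: TCAAGG, the beginning of the element bound by NR5A factors (steroidogenic factor 1 and its relative), AGGTCA, a nuclear receptor element, AGATAA, bound by GATA factors, CCAAT and TATAAA. RefSeq gives Cyp11a1 2 starts. The window printed is the one whose bases shortly after the start occur in a GENCODE transcript of the gene, and the other held 1 of the motifs, CCAAT. For Fdx1 these bases occur in no GENCODE transcript of the gene, so distances to its start rest on RefSeq alone. The printed window of Cyp11a1 is on the plus strand at chr9:58014702-58014971, that of Fdx1 on the minus strand at chr9:51963583-51963852 and that of Hsd3b6 on the minus strand at chr3:98814424-98814693.
Cyp11a1: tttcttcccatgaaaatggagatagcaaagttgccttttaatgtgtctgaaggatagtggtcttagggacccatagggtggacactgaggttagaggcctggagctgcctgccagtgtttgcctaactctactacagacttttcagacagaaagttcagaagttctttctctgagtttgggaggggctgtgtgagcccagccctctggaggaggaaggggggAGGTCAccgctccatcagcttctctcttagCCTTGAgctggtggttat
Fdx1: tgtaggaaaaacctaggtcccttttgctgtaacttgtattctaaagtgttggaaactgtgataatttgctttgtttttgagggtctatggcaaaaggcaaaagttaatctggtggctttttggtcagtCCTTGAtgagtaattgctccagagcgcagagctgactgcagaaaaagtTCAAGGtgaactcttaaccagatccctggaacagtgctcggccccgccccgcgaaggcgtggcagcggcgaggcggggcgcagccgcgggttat
Hsd3b6: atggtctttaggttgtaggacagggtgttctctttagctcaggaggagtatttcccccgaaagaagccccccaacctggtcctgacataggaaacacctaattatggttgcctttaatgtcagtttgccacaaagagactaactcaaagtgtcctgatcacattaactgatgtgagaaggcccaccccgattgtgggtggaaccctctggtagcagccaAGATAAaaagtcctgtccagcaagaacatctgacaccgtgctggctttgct

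In the whole windows of the RefSeq table, which run on to 50 bases after the start, TCAAGG occurred in 14.4% of all 32841 windows and in 3 of the 9 windows of these genes (Cyp11a1, Fdx1 and Hsd3b1). Fdx1 carried it on the opposite strand from 122 bases before the start and on its own strand from 74 bases before. In the printed Cyp11a1 window it lay on the opposite strand, from the 3rd base of the transcript as annotated, and AGGTCA lay 28 bases before the start. The window of Hsd3b6 held AGATAA 31 bases before the start, a motif in 11.2% of all windows. AGGTCA was in 16.3% of all windows, CCAAT in 37.4% and TATAAA in 13.6%, and the last was in none of the windows of these genes. These matches are descriptions of sequence, and the data hold no measurement of binding.

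Knockout and wild type here follow the labels, and the level of lnc956 was not analysed. The knockout libraries carried transcripts of placenta and decidua. The 6 giant cell markers analysed, of 7 listed, summed to 29640, 8780 and 7349 FPKM in knockout replicates 1 to 3 and to 7.51 to 10.3 FPKM in wild type, and the 7 decidual markers analysed, of 8, to 7940 to 8947 FPKM against 51.3 to 65.2 FPKM. The 5 neuron markers analysed, of 7, summed to 1.54 to 18.0 FPKM in knockout and 592 to 626 FPKM in wild type. All 6 giant cell and all 7 decidual markers had groups that did not overlap, with knockout above, and the 5 neuron markers likewise with knockout below. Groups did not overlap for 95.6% of all genes of the table, so this count is near that share. Knockout replicate 1 stood apart from the other knockout libraries in its giant cell markers, and results that turn on it are also given without it. The part of these cell types in the results below was not tested. Of 7 adrenal cortex markers only Mrap was analysed, with 6.82 to 11.3 FPKM in knockout and 2.31 to 3.83 FPKM in wild type, and Nr5a1, which defines adrenal and gonad steroid cells, was not. By these markers the knockout libraries go against the tissue on their label, and they may hold another tissue than the wild-type libraries. Genotype and tissue cannot be told apart here, so every difference given below is one between these 2 sets of libraries. A change in the share of a cell type and a change of RNA per cell cannot be told apart either.

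With limma on log2(FPKM + 1), 7 of the 9 steroid hormone genes that passed the filter on low values were higher in knockout at an adjusted p under 0.05, and none was lower (also none at an unadjusted p under 0.05). The filter asked for at least 1 FPKM in 3 of the 6 libraries. Cyp11a1, Hsd11b1 and Akr1c18 reached that level only in the knockout libraries, and Hsd17b2 in these and in wild-type replicate 1. These genes passed only because the knockout libraries were high, which favours a rise, while Hsd3b1, with knockout below, was left out. The counts and the median over the 9 genes are therefore descriptions. So are the calls and p-values of Cyp11a1, Hsd11b1, Akr1c18 and Hsd17b2 given below. Over the 6487 genes tested, 47.2% were called higher and 49.2% lower, so that nearly every gene of the table passed; the table looks selected for genes that differ between the same groups. The median log2 change, knockout minus wild type, was 4.50 over these 9 genes and 0.38 over all genes tested. Groups did not overlap for 8 of the 10 genes, against 95.6% of the table.

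**Figure D1:**
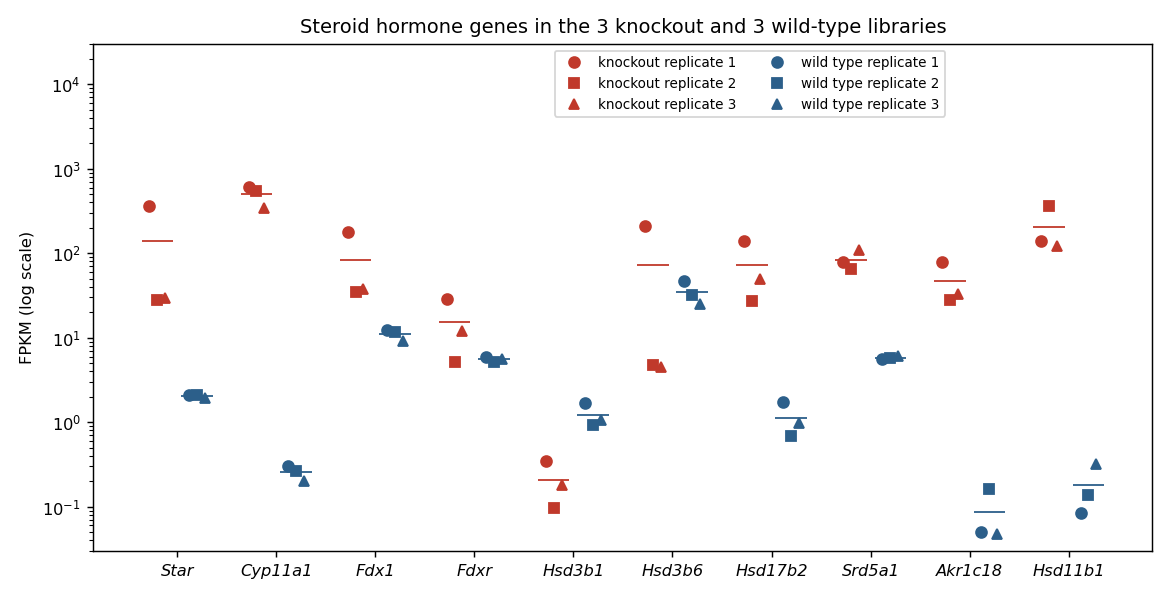
FPKM on a log axis of the 10 steroid hormone genes in each library, knockout left of wild type for every gene; symbols mark replicates 1 to 3 and lines the group means. Cyp11a1 stands at 346 to 604 FPKM in knockout and below 0.31 in wild type, while Hsd3b6 and Star are far higher in knockout replicate 1 than in replicates 2 and 3.

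Cyp11a1 was the most abundant of the 10 genes in each knockout library. It had 604, 547 and 346 FPKM in knockout replicates 1 to 3, against 0.305, 0.263 and 0.202 FPKM in wild-type replicates 1 to 3. Every knockout library was far above every wild-type library, and replicate 3 was the lowest of the knockout libraries. Its log2 change was 8.60 (SE 0.22, limma adjusted p = 3.68e-07), and the ratio of the group means was 1945. Among the 7101 genes it ranked 69, 83 and 107 by FPKM in the knockout libraries and 6617, 6642 and 6723 in the wild-type ones. The gene lies on chromosome 9 from 58006411 to 58027023 in GENCODE M21 on GRCm38, is protein coding like the other 9, and shared 2.06% of the 50-base windows of its transcripts with other genes.

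Star supplies that enzyme with cholesterol. It had 361, 28.3 and 29.7 FPKM in the knockout libraries and 2.12, 2.09 and 1.93 FPKM in the wild-type libraries. Replicate 1 stood 12.1 times above the next knockout library, yet the groups did not overlap. The log2 change was 4.50 (SE 0.91, limma adjusted p = 0.00195) and 3.30 without knockout replicate 1 (adjusted p = 4.58e-06). The gene lies on chromosome 8 from 25806555 to 25815982.

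The electron donors were less even. Fdx1, the ferredoxin, had 180, 34.6 and 38.0 FPKM in knockout and 12.3, 11.7 and 9.18 FPKM in wild type, with no overlap. It rose by 2.40 on the log2 scale (SE 0.59, limma adjusted p = 0.00522), and by 1.64 without knockout replicate 1 (adjusted p = 0.000109). Fdxr, the reductase that feeds it, had 28.7, 5.22 and 12.0 FPKM in knockout and 5.90, 5.17 and 5.62 FPKM in wild type, so knockout replicate 2 lay among the wild-type libraries. Its log2 change of 1.03 (SE 0.51) did not pass, with a limma adjusted p of 0.0825. It did pass after trimmed-mean rescaling (1.37, adjusted p = 0.0364), after quantile normalization (1.26, adjusted p = 0.022) and without knockout replicate 2 (1.58, adjusted p = 0.00228). Without knockout replicate 1 it was 0.46 (adjusted p = 0.189). There were 6.26, 6.63 and 3.17 FPKM of Fdx1 per FPKM of Fdxr in knockout, against 2.08, 2.27 and 1.63 in wild type. The 2 genes lie on chromosome 9 from 51943306 to 51963556 and on chromosome 11 from 115268024 to 115277050.

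The enzymes that make progesterone from pregnenolone did not pass the test or were too low for it. Hsd3b6 had 209, 4.70 and 4.50 FPKM in knockout and 47.3, 32.0 and 24.9 FPKM in wild type. Knockout replicate 1 was above all wild-type libraries and knockout replicates 2 and 3 were below all of them. Its mean FPKM was 2.09 times higher in knockout, while its log2 change was −0.88 (SE 1.33, limma adjusted p = 0.527), so the sign depended on the scale as well as on 1 library. Without knockout replicate 1 the log2 change was −2.63 (adjusted p = 9.83e-05), and without knockout replicate 3 it was 0.00026 (adjusted p = 0.9999). In wild type Hsd3b6 was the most abundant of the 10 genes, with 49.5% to 61.4% of their summed FPKM.

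Hsd3b1, its relative in the adrenal and gonads, was low in every library, at 0.350, 0.0972 and 0.179 FPKM in knockout and 1.69, 0.937 and 1.07 FPKM in wild type. The groups did not overlap, with knockout below. It reached 1 FPKM in too few libraries to be tested, and with no filter its log2 change was −0.88 (SE 0.15, limma adjusted p = 0.00103). Hsd3b1 and Hsd3b6 lie on chromosome 3, from 98852194 to 98859794 and from 98805504 to 98814443. The family has related copies that share stretches of sequence: 15.6% of the 50-base windows of Hsd3b6 transcripts, and 4.86% of those of Hsd3b1, also occur in transcripts of another gene, of which Hsd3b2 held 13.2% and Hsd3b3 12.2% for Hsd3b6. The division of reads among these copies is therefore uncertain.

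Enzymes that break down or convert progesterone were higher in the knockout libraries. Akr1c18, which reduces progesterone to a weakly active product, had 78.8, 27.7 and 32.7 FPKM in knockout and 0.0508, 0.164 and 0.0480 FPKM in wild type. It rose by 5.29 on the log2 scale (SE 0.37, limma adjusted p = 7.41e-06), with no overlap. Srd5a1, a steroid reductase, had 78.4, 65.5 and 109 FPKM in knockout and 5.59, 5.72 and 6.10 FPKM in wild type. Unlike the genes before it, its highest knockout library was replicate 3, and its spread was small (log2 change 3.62, SE 0.20, limma adjusted p = 2.61e-06). Transcripts of a predicted gene, Gm17108, hold 15.1% of the 50-base windows of Srd5a1. Both lie on chromosome 13, Akr1c18 from 4132615 to 4150654 and Srd5a1 from 69573449 to 69611442.

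Hsd17b2, which oxidises estradiol and testosterone to less active steroids, had 141, 26.9 and 49.5 FPKM in knockout and 1.72, 0.683 and 0.986 FPKM in wild type. All knockout libraries were above all wild-type ones, and the order among them was that of Star, Fdx1, Fdxr, Hsd3b1 and Akr1c18. The log2 change was 4.81 (SE 0.55, limma adjusted p = 8.93e-05), and 4.17 without knockout replicate 1 (adjusted p = 2.99e-05). The gene lies on chromosome 8 from 117701904 to 117759027.

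Hsd11b1, which regenerates active glucocorticoid from its inert form, was the one gene of the 10 that was highest in knockout replicate 2. It had 138, 360 and 123 FPKM in knockout and 0.0851, 0.137 and 0.322 FPKM in wild type, with no overlap. Its log2 change was 7.29 (SE 0.39, limma adjusted p = 2.28e-06). The gene lies on chromosome 1 from 193221634 to 193264075. H6pd, which supplies the enzyme with NADPH inside the endoplasmic reticulum, had 26.9, 57.5 and 37.2 FPKM in knockout and 4.86, 4.13 and 4.03 FPKM in wild type, and it too was highest in replicate 2 (log2 change 2.89, SE 0.27, limma adjusted p = 2.94e-05).

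Among the knockout libraries, replicate 1 stood apart for part of the pathway. Its level was at least 3 times that of both other knockout libraries for 3 of the 9 tested genes (Hsd3b6, Star and Fdx1), against 1.31% of the genes tested. The ratio of replicate 1 to the mean of the others had a median of 3.33 over the 9 genes, from 0.574 (Hsd11b1) to 45.5 (Hsd3b6), and a median of 0.865 over all genes tested. With 1 library on a side these ratios have no test. Cyp11a1 did not share the pattern: relative to replicate 1 it stood at 90.6% and 57.3% in replicates 2 and 3, where Star stood at 7.84% and 8.23% and Hsd3b6 at 2.25% and 2.15%. Per FPKM of Cyp11a1 there were thus 0.597, 0.0517 and 0.0859 FPKM of Star and 0.346, 0.00858 and 0.0130 FPKM of Hsd3b6 in knockout replicates 1 to 3, ratios that a scale factor per library leaves as they are.

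**Figure D2:**
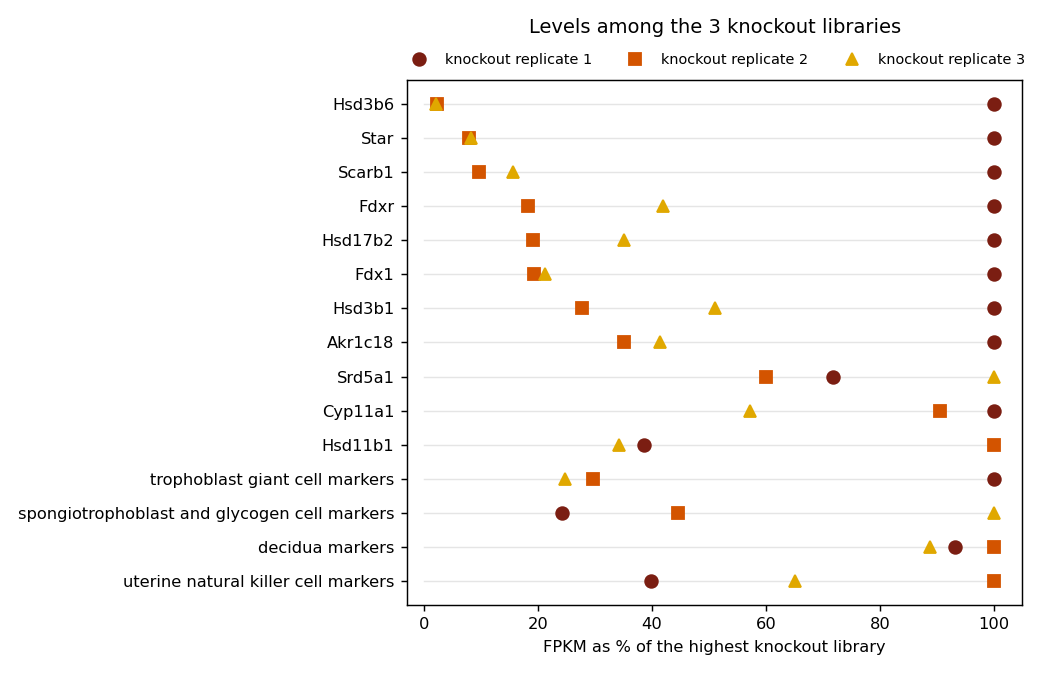
FPKM in each knockout library as a percentage of the highest knockout library, for the 10 steroid hormone genes, the lipoprotein receptor Scarb1 and the summed markers of 4 cell types. Star and Hsd3b6 stay under 10% in replicates 2 and 3. Hsd11b1, the natural killer cell markers and, by less, the decidua markers are highest in replicate 2, and Srd5a1 and the spongiotrophoblast and glycogen cell markers in replicate 3.

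Markers of placental cell types moved among the same libraries. The giant cell markers were highest in replicate 1, with Prl3d1, a hormone gene of giant cells, at 8089, 225 and 338 FPKM in replicates 1 to 3. The 5 spongiotrophoblast and glycogen cell markers analysed, of 7, were highest in replicate 3 (1354, 2483 and 5579 FPKM summed, against 4.45 to 6.18 FPKM in wild type), and so was Srd5a1. The 5 labyrinth trophoblast markers analysed, of 7, were also highest there, at 53.6, 29.5 and 172.9 FPKM summed against 22.6 to 28.2 FPKM in wild type. Only 3 of these 5 markers had every knockout library above wild type and 0 had every one below. Groups did not overlap for 95.6% of all genes of the table. The labyrinth sum of replicate 2 was close to those of wild type. The 7 uterine natural killer cell markers were highest in replicate 2, at 7523, 18890 and 12280 FPKM summed against 0.750 to 2.97 FPKM in wild type, and so was Hsd11b1. The decidual markers were highest there as well, though more even, at 8341, 8947 and 7940 FPKM summed in knockout replicates 1 to 3. Each of these matches is of the highest knockout library alone. Replicate 1 was the lowest knockout library for the spongiotrophoblast and natural killer cell sums, but not for Srd5a1 or Hsd11b1. The decidual sum had the same order of knockout libraries as Hsd11b1. The part of these cells in the levels of the steroid hormone genes was not tested.

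The composition of the group therefore differed from library to library. The 10 genes summed to 1820, 1100 and 745 FPKM in knockout replicates 1 to 3 and to 77.0, 58.9 and 50.4 FPKM in wild-type replicates 1 to 3. Cyp11a1 made up 33.2%, 49.8% and 46.5% of the sum in knockout and 0.396% to 0.446% in wild type. In knockout it was followed by Star (19.8%) and Hsd3b6 (11.5%) in replicate 1, and by Hsd11b1 in replicate 2 (32.7%) and in replicate 3 (16.5%). In wild type Hsd3b6 was followed by Fdx1, at 15.9% to 19.9%. By mean over the knockout libraries the order was Cyp11a1, Hsd11b1, Star, Srd5a1, Fdx1, Hsd3b6, Hsd17b2, Akr1c18, Fdxr and Hsd3b1, and from Hsd11b1 down to Akr1c18 neighbours differed by less than the larger SD of the pair.

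Profiles closest to those of 5 of these genes were sought over the 6 libraries, by the root mean square difference of log2(FPKM + 1) values after each gene was centred on its own mean. Among the closest to Cyp11a1 were Tnfrsf9, a lymphocyte costimulatory receptor (0.258), and Serpinb9b, a serine protease inhibitor (0.318). Closest to Hsd11b1 were Olr1, Il1r2 and AA467197 (0.271 to 0.317). Star was followed by the chemokine receptor Cxcr2 (0.630), by Hsd17b2 of this same group (0.653) and by Dnase1l3 (0.665). Fdxr had close neighbours (Wscd2, Lama1 and Htatsf1, 0.136 to 0.198), whereas the nearest to Hsd3b6 were as far off as 1.20 to 1.28 (Hbb-b2, Fgd1 and Paqr8). These distances describe 6 libraries in 2 groups and were not tested.

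Cholesterol, the substrate of the pathway, can be made in the cell or taken up. Of 22 genes of its synthesis listed 7 were analysed, and 4 of the early steps fell, 2 rose and Hsd17b7 did not pass (log2 change 0.81, limma adjusted p = 0.0708), with a median log2 change of −1.43. The share that fell is near the 49.2% of all genes tested. Hsd17b7 did pass, as higher in knockout, in 4 of the other settings tried. Hmgcs1, which encodes a synthase of the mevalonate pathway, was lower in every knockout library. Hmgcs1 had 22.2, 19.97 and 23.9 FPKM in knockout and 80.7, 87.5 and 98.2 FPKM in wild type. Its groups did not overlap (log2 change −1.96, SE 0.14, limma adjusted p = 8.23e-06). The kinases Mvk and Pmvk and the decarboxylase Mvd fell too (log2 changes −1.58, −1.43 and −1.49). The genes that rose were the sterol isomerase Ebp, at 20.6 ± 3.47 FPKM in knockout and 7.91 ± 0.723 FPKM in wild type (SD, n = 3 each, as in all later means), and Insig2, a brake on the pathway, at 19.9 ± 3.59 and 6.57 ± 0.657 FPKM in the same order. The median of the 7 genes stood at 38.1%, 33.96% and 39.6% of the wild-type mean in knockout replicates 1 to 3, without the unevenness of Star.

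**Figure D3:**
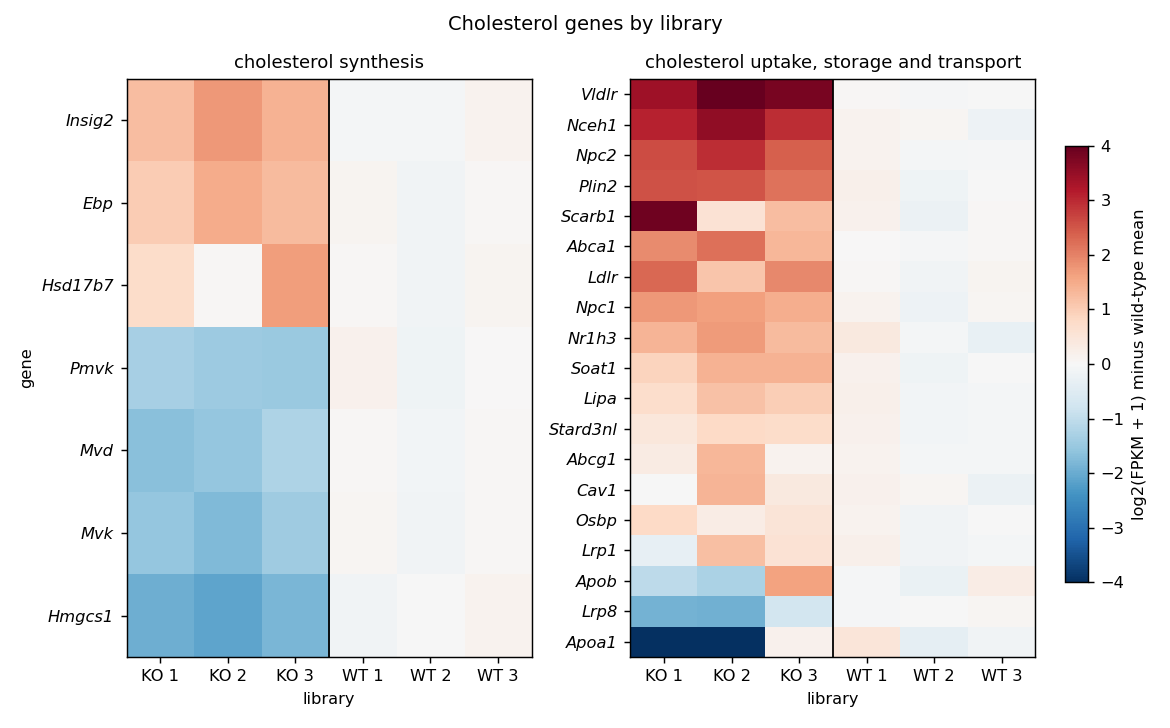
Log2(FPKM + 1) of each tested cholesterol gene in each library, minus its wild-type mean; red is above that mean, blue below, and colours end at 4 log2 units. All 4 genes of the early synthesis steps are lower in the 3 knockout libraries, and Scarb1 is highest in knockout replicate 1.

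Of 26 genes of cholesterol uptake, storage and transport listed 19 were analysed, and 13 rose, 2 fell and 4 (Lrp1, Apob, Cav1 and Abcg1) did not pass, with a median log2 change of 1.22, where 47.2% of all genes tested rose and 49.2% fell. The smallest p among those that rose belonged to Vldlr, a lipoprotein receptor (57.4 ± 17.4 FPKM in knockout, 3.01 ± 0.133 in wild type), and Nceh1, a cholesteryl ester hydrolase (16.6 ± 3.85 and 0.898 ± 0.240). Nceh1, at 0.622 FPKM in wild-type replicate 3, needed the knockout libraries to pass the filter on low values. So did Nr1h3, another gene that rose. The calls and p-values of Nceh1 and Nr1h3 are therefore descriptions. Npc2 and Npc1, which carry cholesterol out of lysosomes, rose by 2.66 and 1.61 on the log2 scale. Scarb1, the receptor through which steroid-making cells take cholesterol from high-density lipoprotein, had 206, 19.8 and 31.9 FPKM in knockout and 14.8, 11.1 and 13.7 FPKM in wild type. It passed narrowly (log2 change 1.89, SE 0.77, limma adjusted p = 0.0455), and no longer with a pseudocount of 5 (adjusted p = 0.0616) or without any 1 of the wild-type libraries (0.0854 to 0.103). Without knockout replicate 1 the change was 0.89 (adjusted p = 0.00912). The genes that fell were Lrp8 (log2 change −1.52) and Apoa1, an apolipoprotein gene of liver and yolk sac with 1.95, 0.248 and 72.8 FPKM in knockout and 91.1, 49.97 and 59.1 FPKM in wild type. The Apoa1 call (limma adjusted p = 0.0451) ended with a pseudocount of 5, after trimmed-mean rescaling and without any single library other than knockout replicate 3 (adjusted p from 0.0539 to 0.251). Apoa1, below 1 FPKM in knockout replicate 2, needed the wild-type libraries to pass the filter, so its call is a description.

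**Figure D4:**
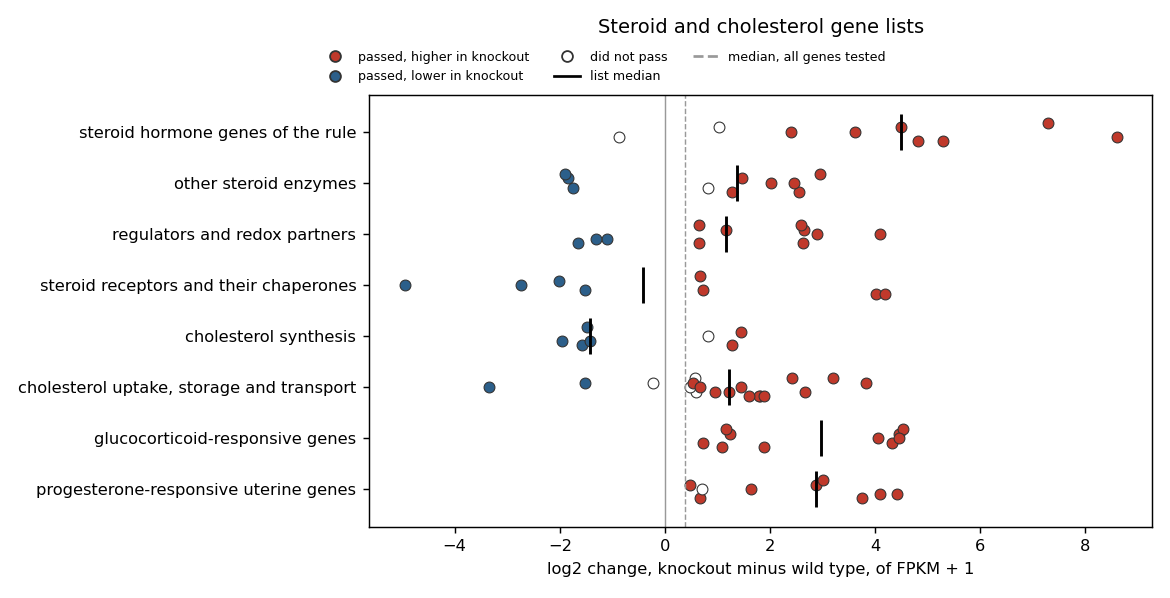
Log2 change, knockout minus wild type, of each tested gene of the steroid hormone group and of 7 related lists; filled points passed at an adjusted p under 0.05, bars are list medians and the dashed line is the median of 0.38 over all genes tested. The steroid hormone genes have the highest median (4.50) and cholesterol synthesis the lowest (−1.43).

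Of 36 other enzymes of steroid metabolism listed 12 were in the table and 10 were tested, of which 6 rose, 3 fell and Hsd17b7 did not pass, with a median log2 change of 1.37. Over all genes tested, 47.2% rose and 49.2% fell. Hsd17b11 and the bile acid enzyme Hsd3b7 rose, to 56.5 ± 8.78 and 30.4 ± 9.11 FPKM in knockout, against 8.80 ± 0.298 and 4.59 ± 0.173 FPKM in wild type. Sult1e1, which inactivates estrogens by sulfation, had 22.6, 3.88 and 5.13 FPKM in knockout and 0.324, 0.149 and 0 FPKM in wild type, highest in the library where Star was highest (log2 change 2.95, SE 0.55, limma adjusted p = 0.00129). It was named after its values were seen. Sult1e1 passed the filter on low values only through the knockout libraries, and Cyp1b1 and Cyp39a1, given next, only through the wild-type ones. The calls and p-values of these genes are therefore descriptions. The genes that fell were Cyp1b1, an estrogen hydroxylase (0.0298 ± 0.0182 FPKM in knockout, 2.46 ± 0.130 in wild type), the oxysterol hydroxylase Cyp39a1 (0.422 ± 0.165 and 4.12 ± 0.0594) and the mitochondrial dehydrogenase Hsd17b10 (30.8 ± 8.07 and 116 ± 11.2).

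Of 22 regulators and redox partners of the pathway listed 12 were in the table and 11 were tested, of which 8 rose and 3 fell, with a median log2 change of 1.17, where 47.2% of all genes tested rose and 49.2% fell. Dbi, an acyl-CoA binding protein and ligand of the mitochondrial protein TSPO, averaged 1550 ± 102 FPKM in knockout and 257 ± 11.8 FPKM in wild type, and Tspo itself 118 ± 43.7 and 17.7 ± 3.60. Cyb5a, the cytochrome that assists steroid hydroxylases, averaged 561 ± 35.1 and 89.3 ± 9.38. Those that fell were the angiotensin receptor Agtr1a (log2 change −1.10) and the transcription factors Gata6 and Gata4 (−1.31 and −1.65), which regulate steroidogenic genes in gonads. Agtr1a, Gata6 and Gata4 passed the filter on low values only through the wild-type libraries, so their calls are descriptions. Gata6 did reach 1.14 FPKM in knockout replicate 3, too few libraries to pass without wild type. The NR5A factor Nr5a2 did not pass the filter, at 0.0732, 0.0271 and 0.0853 FPKM in knockout and 0.783, 0.971 and 1.14 FPKM in wild type.

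Of 19 receptors and chaperones listed 10 were in the table and 8 were tested, of which 4 rose and 4 fell, with a median log2 change of −0.42. That is close to the shares over all genes tested, 47.2% higher and 49.2% lower. The progesterone receptor Pgr had 14.4, 27.3 and 16.8 FPKM in knockout and 0.105, 0.0674 and 0.105 FPKM in wild type (log2 change 4.18, SE 0.23, limma adjusted p = 2.8e-06). The estrogen receptor Esr1 had 11.9, 23.0 and 16.6 FPKM in knockout and 0.0631, 0.133 and 0.0658 FPKM in wild type (4.02, SE 0.23, limma adjusted p = 3.11e-06). Both were highest in replicate 2. Pgr and Esr1 passed the filter on low values only through the knockout libraries, and Esrrg, Ncoa1 and Serpina6 only through the wild-type ones. Ncoa1 did reach 1 FPKM in knockout replicate 2, and Serpina6 in knockout replicate 1, too few to pass without wild type. The calls and p-values of these genes are therefore descriptions. The glucocorticoid receptor Nr3c1 rose by less, at 5.37 ± 0.814 FPKM in knockout and 2.98 ± 0.277 FPKM in wild type, and so did Pgrmc1 (log2 change 0.72), whose sign turned with quantile normalization (−0.09). The genes that fell were the receptor cochaperone Fkbp4 (29.0 ± 11.3 and 188 ± 15.9 FPKM in the same order), the coactivator Ncoa1 (0.940 ± 0.142 and 6.85 ± 0.585), the orphan receptor Esrrg (log2 change −1.52) and Serpina6, the corticosteroid carrier made in liver, with 1.27, 0 and 0 FPKM in knockout and 54.2, 27.1 and 42.6 FPKM in wild type.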

How the data were processed

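The authors deposited 1 value per gene and library, taken as FPKM because Cufflinks is the only quantifier named, the values are not whole and the columns have different sums; the header names no unit. TopHat2 2.0.8 and Cufflinks 2.1.1 appear together with mm9 and mm10, neither given a role, per the submitters' processing notes. No source used here says how the genes of the table were selected. The files hold no read depth, so counting intervals could not be had.

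Groups and replicate numbers are those of the labels. The test was run on log2(FPKM + 1), where changes of low genes come out too small, with limma 3.58.1 in R 4.3.3 (eBayes with trend and robust), two-sided, genotype as the term, and Benjamini-Hochberg adjustment over the 6487 genes with at least 1 FPKM in 3 libraries. The fit was tested on simulated data in which both groups had the spread of the wild-type libraries. That test does not cover the larger knockout spread of genes such as Star and Hsd3b6. From each list the 2 genes of smallest p in each direction were named, with others where few moved or where a gene was singled out after its values were seen. Members, lists, markers and motifs were chosen with earlier results of these data, or the sequences, known. Symbols were matched exactly, and some genes are not reported here. Positions are from GENCODE M21 (GRCm38) and promoter sequences from RefSeq (GRCm38.p6). Alternatives were other pseudocounts, filters, scalings and limma settings, the replicate number as a block, and each library left out.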

Additional observations from a re-analysis of the deposited data

How the results depend on the processing

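The count of steroid hormone genes called higher stayed between 7 and 8 under every setting tried. The count called lower was 0, but 1 with no filter on low values (Hsd3b1) and 0 to 1 when single libraries were left out (Hsd3b6 without knockout replicate 1). The log2 change of Hsd3b6 lay between −2.63 and 0.00026 when single libraries were left out, and that of Pgrmc1 was −0.0915 after quantile normalization; the cause was not tested. Other pseudocounts kept every direction and call of these genes but moved the sizes, as for Cyp11a1 (10.42 with 0.1 and 6.54 with 5). The median log2 change of all genes was 0.38, against 0.65 with trimmed-mean rescaling and −0.04 with quantile normalization. Replicate numbers did not pair the libraries (deviations of same-numbered libraries correlated at −0.06, 0.08 and 0.11 across genes). With the replicate block 3038 genes were higher and 3192 lower, against 3065 and 3191 without it, and Fdxr passed (1.03, limma adjusted p = 0.036). Depth is unknown, so values under about 1 FPKM are imprecise to a degree that cannot be given.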

Other observations

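Genes that respond to the hormones were looked at as well. All 10 tested genes of the 12 on the glucocorticoid-responsive list rose in knockout, with a median log2 change of 2.97, against 0.38 for all genes tested, of which 47.2% rose. Sgk1, a kinase induced by corticosteroids, had 182, 278 and 190 FPKM in knockout and 9.72, 8.26 and 8.49 FPKM in wild type (log2 change 4.44, SE 0.19, limma adjusted p = 1.03e-06). Klf9 had 21.1, 35.4 and 25.9 FPKM in knockout and 0.646, 0.728 and 0.668 FPKM in wild type. It passed the filter on low values only through the knockout libraries, so its call is a description. Among the knockout libraries Dusp1 was highest in replicate 1, Per1 in replicate 3 and Tsc22d3 in replicate 1, with replicate 2 the lowest. The other genes tested were highest in replicate 2. The FPKM of all genes also had its largest sum there (291400, 304400 and 258700 in knockout replicates 1 to 3). The share of all genes highest in replicate 2 was not counted. The rises in Tsc22d3, the leucine zipper gene used as a marker of glucocorticoid action, and Per1 were smaller (log2 changes 1.24 and 0.73), and the Per1 call ended without wild-type replicate 2, wild-type replicate 3 or knockout replicate 3 (limma adjusted p = 0.0627, 0.0616 and 0.0518). These genes respond to other signals too, and no hormone was measured.

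Of 14 genes known as progesterone-responsive in the uterus 10 were in the table and 9 were tested. Of these, 8 rose and Muc1 did not pass (log2 change 0.70, limma adjusted p = 0.212), with a median log2 change of 2.87, where 47.2% of all genes tested rose. The count that rose was 6 without wild-type replicate 3 and 9 after quantile normalization. The Wnt4 call ended in 6 of the other settings tried and the Bmp2 call in 1. Hand2, a transcription factor of uterine stroma, averaged 179 ± 21.6 FPKM in knockout and 21.1 ± 0.478 FPKM in wild type, and Hoxa10 averaged 126 ± 27.9 and 8.35 ± 1.34 FPKM in the same order (SD, n = 3 each). Ihh, an epithelial signal induced by progesterone, was not tested and had 0, 0.0209 and 0.263 FPKM in knockout and 0.952, 0.819 and 0.460 FPKM in wild type. Decidual markers, with Hand2, Bmp2 and Wnt4 also on this list, were high in the same libraries, as given above, and their part in these rises was not tested.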
